A study of Homo sapiens with 14 samples.

Results

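The genes described here are 10 heat shock chaperones and chaperone partners: HSPA1A, HSPA1B, HSPA8, HSPH1, HSP90AA1, DNAJB1, BAG3, HSPE1, HSPB1 and CRYAB. They were chosen by name as a functional family, with earlier results of these data known. All 10 were found among the 24489 genes listed in the RNA tables. The human glioblastoma line U251MG, an established cell line, gave 12 RNA-seq libraries in 4 groups of 3. Radioresistant cells had received 60 Gy of X-rays, split into daily fractions of 2 Gy, 30 in number, and were set beside control cells of the same line. The other groups were radioresistant cells with shIFI16, a short hairpin RNA against the innate immune sensor IFI16, and radioresistant cells with shNC, the comparison hairpin. All 4 groups carried the label wild type, and both hairpin groups shared the irradiation history. A further hairpin to the same gene or a rescue is not named in the labels, so loss of IFI16 and other effects of the hairpin cannot be told apart. Nothing in the labels says that replicates came from separate cultures, so p-values reflect only library-to-library spread, which may be technical in origin. The columns carried codes and not group names. UR and UN were read as radioresistant and control from the endings of the ATAC-seq file names, and URS and URN as shIFI16 and shNC.

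Heat shock proteins of the HSP70 class bind exposed stretches of unfolded proteins, J-domain partners such as DNAJB1 deliver the client and start ATP hydrolysis, and nucleotide exchange factors such as BAG3 and HSPH1 let the client go. HSP90 takes over clients such as kinases and steroid receptors, small heat shock proteins hold unfolded proteins without ATP, and HSPE1 forms the lid of the HSPD1 chaperonin in mitochondria. When unfolded proteins build up, heat shock factor HSF1 binds heat shock elements, inverted repeats of the letters GAA found upstream of many of these genes. Astrocytic tumours are known for abundant HSPB1 and CRYAB.

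Sequences upstream of the start sites are shown for the genes with a letter match to the heat shock element. HSPE1, which had no match, is shown as well. Sequences and positions are those of RefSeq on GRCh38.p14, printed 5′ to 3′ on the strand of the gene. Matches to a heat shock element are in capitals, except for HSPE1, where capitals mark the 5 bases on either side of an ATAC-seq summit and its centre. HSPA1A and HSPA1B are given from 150 bases before the start site to the base before it. HSPE1 is given from -104 to -1, and the other genes by the stretch that holds the match.
HSPA1A: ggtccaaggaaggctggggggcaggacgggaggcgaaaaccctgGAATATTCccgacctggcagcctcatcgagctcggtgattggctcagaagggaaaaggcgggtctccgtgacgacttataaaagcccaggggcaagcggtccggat
HSPA1B: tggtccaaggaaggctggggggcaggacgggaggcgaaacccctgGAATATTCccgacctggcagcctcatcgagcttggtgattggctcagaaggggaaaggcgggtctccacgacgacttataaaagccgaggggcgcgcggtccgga
HSPA8 distal: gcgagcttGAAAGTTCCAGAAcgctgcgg
HSPA8 proximal: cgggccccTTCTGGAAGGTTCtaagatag
HSP90AA1: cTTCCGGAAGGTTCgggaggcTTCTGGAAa
DNAJB1 distal: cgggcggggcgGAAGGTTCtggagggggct
DNAJB1 proximal: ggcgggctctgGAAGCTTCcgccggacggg
HSPB1: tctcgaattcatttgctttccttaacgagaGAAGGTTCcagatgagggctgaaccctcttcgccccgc
HSPE1: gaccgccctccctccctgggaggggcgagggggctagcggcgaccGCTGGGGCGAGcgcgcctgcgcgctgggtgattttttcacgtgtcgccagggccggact
The stretches lie at chr6:31815393-31815542 for HSPA1A and chr6:31827588-31827737 for HSPA1B on the plus strand. Those of HSPA8 lie at chr11:123062346-123062374 and chr11:123062171-123062199, and that of HSP90AA1 at chr14:102087104-102087133, all on the minus strand. For DNAJB1 they lie at chr19:14518456-14518485 and chr19:14518426-14518455 on the minus strand. The stretches of HSPA8, HSP90AA1 and DNAJB1 lie upstream of the start site used, but inside the annotated span of the gene. On the plus strand, the HSPB1 stretch is chr7:76302461-76302528 and the HSPE1 stretch chr2:197500275-197500378.

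A short element was searched as GAANNTTC or TTCNNGAA in the 250 bases before each start site. Each of these motifs reads the same on both strands, and overlapping matches were counted separately. It was found for 6 of the 9 genes with a promoter entry (HSPA1A, HSPA1B, HSPA8, HSP90AA1, HSPB1 and DNAJB1), beside 13.96% of 27305 genes. The longer element, GAANNTTCNNGAA or its reverse complement TTCNNGAANNTTC, was found for HSPA8, with 2 matches, and for HSP90AA1, with 1, beside 0.557% of all genes. HSP90AA1 held its matches before the start site at 102087044 and none before the one at 102139749. DNAJB1 held matches before 1 of its 3 start sites. No match lay in these windows of HSPH1, HSPE1 and BAG3, which says only that the letters were not there. CRYAB had no promoter entry. HSPA1A and HSPA1B share GAATATTC at -106 and -105 from the start site, and their 250 upstream bases were identical in 93.6% of aligned columns. A match of letters is a description and not a binding site.

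The genes lie on 8 chromosomes. HSPA1A (chromosome 6, 31815543 to 31817942) and HSPA1B (chromosome 6, 31827738 to 31830254) are near-identical neighbours, and how the authors' counting split reads between them is not known. HSPA8 spans 123057489 to 123062462 of chromosome 11 and holds the small nucleolar RNAs SNORD14C, SNORD14D and SNORD14E. HSP90AA1 (chromosome 14, 102080742 to 102139749) overlaps WDR20, and DNAJB1 (chromosome 19, 14514769 to 14560391) overlaps TECR and MIR639. HSPE1 (chromosome 2, 197500379 to 197503449) begins beside HSPD1 and overlaps the readthrough gene HSPE1-MOB4, whose mean level was 0.496 TPM in radioresistant cells, 0.633 TPM in control cells, 4.56 TPM with shIFI16 and 2.73 TPM with shNC. These low levels were uneven, at 3.38, 0.188 and 4.63 TPM in the shNC libraries, against 3.61, 4.94 and 5.12 TPM with shIFI16. CRYAB (chromosome 11, 111908564 to 111923740) overlaps HSPB2, which did not exceed 0.399 TPM in any library. HSPH1 (chromosome 13, 31134973 to 31162388), HSPB1 (chromosome 7, 76302673 to 76304292) and BAG3 (chromosome 10, 119651380 to 119677819) overlap no annotated gene. The use of strand in counting is not given in the sources used here, so values of the overlapping pairs are uncertain, as are those of HSPA8, HSP90AA1 and HSPE1, which have processed pseudogenes.

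Levels are in TPM (transcript abundance scaled to a fixed total per library), which are comparable between genes because they are divided by length, and which keep no sequencing depth. In each library 12380 to 13036 genes reached 1 TPM, and libraries of a group correlated at 0.989 to 0.995 on the log2 scale across genes. IFI16 stood at 7.68, 7.90 and 6.71 TPM with shIFI16, against 125, 140 and 127 TPM with shNC, which goes with the reading of the hairpin columns; the radioresistant and control columns have no such check. Of 8 astrocyte and glioma markers, 7 or 8 were at 1 TPM or more in every library of a group. All 8 were lower in every radioresistant than in every control library, and their summed level was 5970 to 6413 TPM in radioresistant cells, against 13907 to 14107 TPM in control cells. With the hairpins the sum was 5048 to 5887 TPM with shIFI16, against 6898 to 7515 TPM with shNC, a difference carried by VIM (4649 against 6526 TPM). There 6 of the 8 means were higher with shIFI16, 4 of them with no overlap (GFAP, 31.1 against 1.73 TPM, FABP7, S100B and SOX2), and VIM and NES were lower. Immune markers summed to 19.4 to 23.5 TPM in radioresistant cells, against 15.3 to 20.6 TPM in control cells, and to 14.05 to 17.7 TPM with shIFI16, against 37.4 to 40.3 TPM with shNC, with AIF1 at 0 throughout. Neuron markers summed to 9.66 to 12.9 TPM in radioresistant cells, against 17.1 to 23.5 TPM in control cells, and to 12.1 to 13.0 TPM with shIFI16, against 19.1 to 21.1 TPM with shNC. Epithelial markers summed to 30.5 to 42.4 TPM in radioresistant cells, against 26.2 to 40.7 TPM in control cells, and to 78.98 to 90.9 TPM with shIFI16, against 52.4 to 54.3 TPM with shNC, with CDH1 at 0 in control and shIFI16 libraries. Endothelial markers summed to 0.550 to 1.07 TPM in radioresistant cells, against 7.34 to 8.31 TPM in control cells, and to 8.69 to 10.8 TPM with shIFI16, against 2.97 to 4.004 TPM with shNC. CD68, SYT1, KRT18 and CDH5 carried most of the immune, neuron, epithelial and endothelial sums, in that order. With shIFI16 the immune, neuron and epithelial lists each had 1 marker with a higher mean and 2 with a lower. The endothelial list had 2 higher and 1 lower. In radioresistant cells 2 immune markers were higher and 1 lower, and 1 endothelial marker was higher and 2 lower. Oligodendrocyte markers summed to 1.02 TPM or less in every library. The part of these shifts in the chaperone values was not tested. In bulk RNA, a different share of cells and a different amount of RNA per cell cannot be told apart.

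In radioresistant cells the 10 genes together made up 0.743 ± 0.0227% of all TPM, against 0.532 ± 0.0156% in control cells (SD, n = 3). With shIFI16 they made up 0.822 ± 0.0159%, against 0.791 ± 0.00934% with shNC. These sums follow the most abundant genes. In radioresistant cells HSPB1 averaged 2578 against 1598 TPM, HSPA8 1811 against 1390 TPM and HSP90AA1 1810 against 1508 TPM. With shIFI16 HSP90AA1 (1993 against 1427 TPM) and HSPE1 (831 against 665 TPM) had higher means, as did HSPH1 and CRYAB. The means of the other members were lower, HSPB1 (2346 against 2496 TPM) and HSPA8 (2123 against 2268 TPM) among them. HSPB1 had the highest mean of the 10 in every group, at rank 33 of all genes by mean TPM in radioresistant cells and rank 62 in control cells. HSPA8 and HSP90AA1 came next in every group, and their ranges overlapped in radioresistant, control and shIFI16 cells but lay apart with shNC, where HSPA8 was higher. The lead of HSPB1 was within the spread in control cells, where its range overlapped that of HSP90AA1, and with shNC, where it overlapped that of HSPA8. DNAJB1, BAG3, HSPA1B, HSPE1, HSPH1 and HSPA1A formed a middle tier of 131 to 245 TPM in radioresistant cells, and 72.8 to 245 TPM in control cells. Within that tier, neighbours from BAG3 down to HSPH1 did not differ beyond their spread in radioresistant cells, nor did those from BAG3 down to HSPA1B in control cells. CRYAB was the lowest of the 10 in every group, at rank 7986 in radioresistant cells, 10258 in control cells, 11697 with shIFI16 and 12161 with shNC. HSPE1 left the middle tier in the hairpin table, where it ranked 165 with shIFI16 and 216 with shNC.

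**Figure D1:**
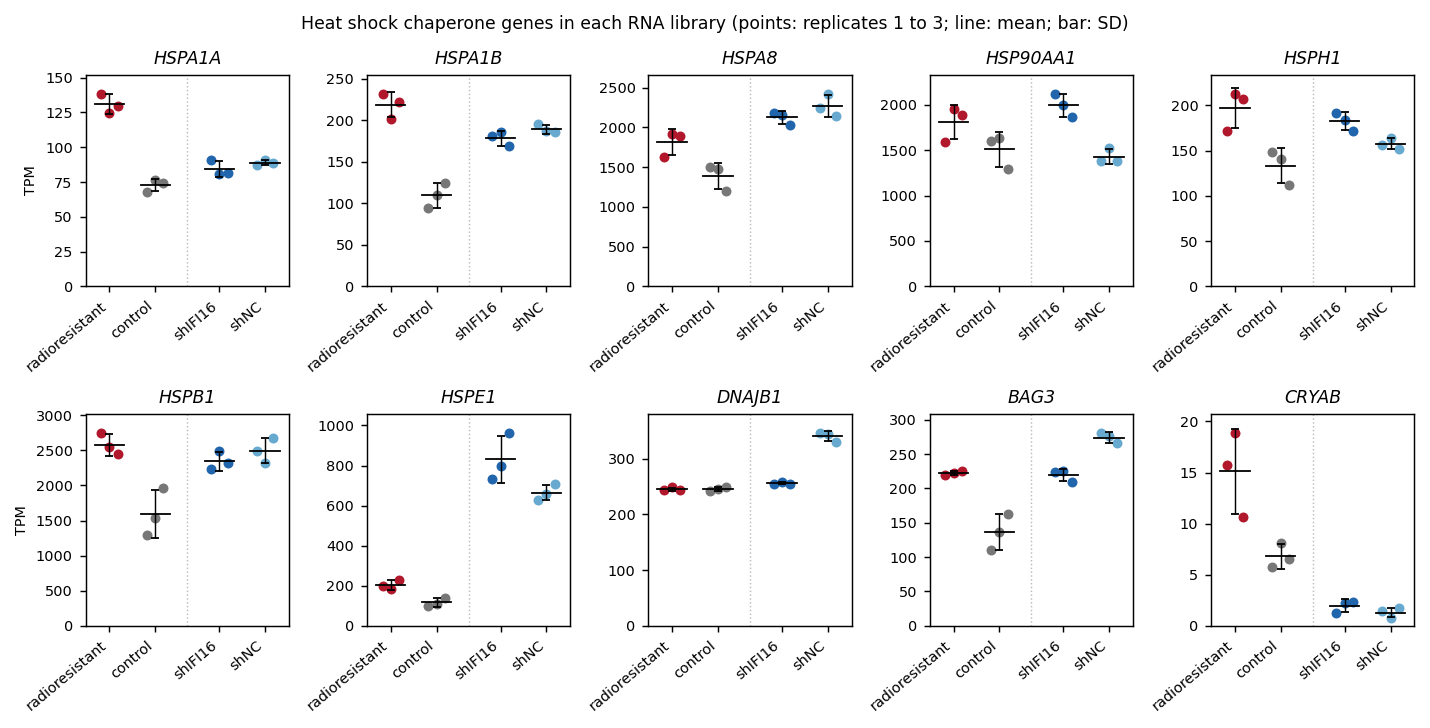
Level in TPM of each of the 10 genes (1 panel each, linear axis from 0) in the 3 libraries of radioresistant, control, shIFI16 and shNC cells, with the mean as a line and the SD as a bar. The dotted line parts 2 tables that were normalized separately; 8 genes lie higher in every radioresistant than in every control library, and DNAJB1 averages 245.4 TPM in radioresistant and 244.9 TPM in control cells.

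The first comparison asks how cells that had come through fractionated irradiation differ from control cells. Of the 10 genes, 8 rose in radioresistant cells and 0 fell, and for the same 8 every radioresistant library lay above every control library. Both inducible HSP70 genes, the small heat shock proteins, HSPE1, BAG3 and HSPH1 rose by 1.48 to 2.22 times as ratios of mean TPM, and HSPA8 by 1.302 times. HSP90AA1 and DNAJB1 did not pass the test. Among all 13127 genes tested, 16.9% rose and 27.0% fell, 43.9% in all, and 21.5% were higher and 31.7% lower with no overlap between groups. All 10 genes passed the filter on low values in both comparisons. The median log2 change of the 10 genes was 0.71, beside -0.11 over all genes tested. Changes are on the log2(TPM + 1) scale and were tested with limma, with p-values adjusted over all genes tested by the Benjamini-Hochberg method and a threshold of 0.05.

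HSPA1A and HSPA1B encode the stress-inducible HSP70 of the cytosol. HSPA1A stood at 138, 124 and 129.95 TPM in radioresistant cells, against 67.7, 76.2 and 74.4 TPM in control cells. The groups lay far apart, with means of 131 ± 7.06 and 72.8 ± 4.49 TPM (SD, n = 3 each), and the log2 change was 0.84 (SE 0.106, adjusted p = 0.00013). HSPA1B stood at 232, 202 and 222 TPM in radioresistant cells, against 94.7, 111 and 124 TPM in control cells. Control replicate 3 was the nearest of the controls and was still well below every radioresistant library, and the log2 change was 0.99 (SE 0.123, adjusted p = 0.00012). Because reads of these copies may be split arbitrarily, their sum was also taken, at 349.9 ± 22.1 TPM in radioresistant cells, against 183 ± 18.6 TPM in control cells, a difference of 0.94 in mean log2 level.

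HSPA8 encodes the constitutive HSP70 of the cytosol, and HSPH1 an HSP110 that acts as its exchange factor. HSPA8 reached 1622, 1918 and 1892 TPM in radioresistant cells, against 1499, 1469 and 1203 TPM in control cells. The lowest radioresistant library was only slightly above the highest control library, and the log2 change of 0.38 (SE 0.123) passed at an adjusted p of 0.027. That call rested on single libraries: it was lost without radioresistant replicate 2 (adjusted p = 0.088), radioresistant replicate 3 (0.1) or control replicate 2 (0.056), and with quantile normalization (0.1). HSPH1 reached 171, 213 and 207 TPM in radioresistant cells, against 148, 140.3 and 112 TPM in control cells. Radioresistant replicate 1 was the low one of its group and still exceeded each control, and the log2 change was 0.56 (SE 0.136, adjusted p = 0.0071).

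HSP90AA1 encodes the inducible form of cytosolic HSP90. Its levels were 1593, 1952 and 1885 TPM in radioresistant cells, against 1599.6, 1636 and 1289 TPM in control cells. The groups overlapped, since radioresistant replicate 1 fell below control replicates 1 and 2. The log2 change of 0.27 (95% confidence interval -0.02 to 0.55, adjusted p = 0.12) did not pass. It passed in 1 of 12 alternatives, median-ratio scaling (0.39, adjusted p = 0.03). Quantile normalization gave 0.17 (adjusted p = 0.39), and leaving out control replicate 3 gave 0.16 (adjusted p = 0.26).

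DNAJB1 is the J-domain partner that pairs with the inducible HSP70, and BAG3 links HSP70 to autophagy of damaged proteins. DNAJB1 stood at 244, 248 and 243 TPM in radioresistant cells, against 241, 245 and 248 TPM in control cells. These 6 values lay within a few TPM of each other and the groups overlapped. The log2 change was 0.00, with a 95% confidence interval of -0.21 to 0.21 and an adjusted p of 0.98. BAG3 stood at 219, 223 and 226 TPM in radioresistant cells, against 111, 137 and 162 TPM in control cells. The radioresistant libraries were tightly grouped, the controls were spread, and no control reached them; the log2 change was 0.72 (SE 0.136, adjusted p = 0.0018).

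HSPB1 and CRYAB are ATP-independent small heat shock proteins that also bind intermediate filaments. HSPB1 reached 2747, 2543 and 2443 TPM in radioresistant cells, against 1291, 1539 and 1963 TPM in control cells. Control replicate 3 was the highest control and control replicate 1 the lowest, and all were below the radioresistant libraries, with a log2 change of 0.71 (SE 0.147, adjusted p = 0.003). CRYAB reached 15.8, 18.9 and 10.7 TPM in radioresistant cells, against 5.75, 8.11 and 6.51 TPM in control cells. The groups did not overlap, and the log2 change was 1.03 (SE 0.201, adjusted p = 0.0022), at the lowest level of the 10 and with the widest relative spread among radioresistant libraries.

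HSPE1, the small lid of the mitochondrial chaperonin, stood at 199, 182 and 230.1 TPM in radioresistant cells, against 100.2, 107 and 140.1 TPM in control cells. The groups did not overlap, and the log2 change was 0.82 (SE 0.144, adjusted p = 0.0012). Its partner HSPD1, which shares the start region, had means of 672 ± 94.4 TPM in radioresistant cells and 529.9 ± 38.9 TPM in control cells, and its log2 change of 0.34 did not pass (adjusted p = 0.051). In 3 of 12 alternatives HSPD1 passed: at 0.46 with median-ratio scaling (adjusted p = 0.018), at 0.46 once radioresistant replicate 1 was left out (0.018) and at 0.39 once control replicate 1 was (0.046).

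Control libraries differed among themselves along these genes. Control replicate 1 was the lowest control for 7 of the 10, and control replicate 3 was the highest for HSPA1B, HSPB1, HSPE1, DNAJB1 and BAG3 and the lowest for HSPA8, HSP90AA1 and HSPH1. Without control replicate 3 the same 8 genes passed, beside 7138 of 12827 genes tested, against 5762 of 13127 with it. Median-ratio scaling moved the median change of all genes to 0.01 and the share of calls that rose to 50.6%, against 38.5% as deposited; 9 of the 10 genes then rose, with HSP90AA1 added.

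**Figure D2:**
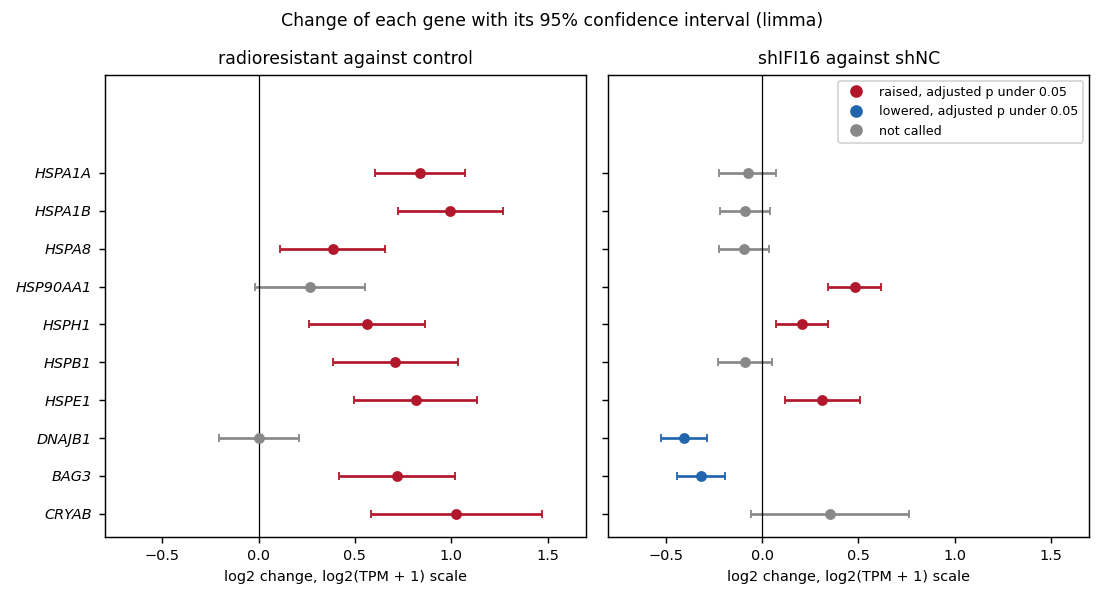
Log2 change of each gene (points) with its 95% confidence interval (bars) for radioresistant against control cells on the left and shIFI16 against shNC on the right, coloured by limma call at an adjusted p of 0.05. On the left 8 points are called as higher and none as lower; on the right 3 are called as higher, 2 as lower and 5 are not called.

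The second comparison asks what the hairpin against IFI16 changes in cells that are already radioresistant. The 10 genes parted here: HSP90AA1, HSPH1 and HSPE1 rose with shIFI16, DNAJB1 and BAG3 fell, and HSPA1A, HSPA1B, HSPA8, HSPB1 and CRYAB did not pass the test. Among all 12567 genes tested, 16.6% rose and 16.3% fell. The median log2 change of the 10 was -0.08, beside 0.03 over all genes tested. The 3 genes that rose and the 2 that fell showed no overlap between groups, as did 23.4% of all genes in the higher direction and 21.4% in the lower. The share of members that passed in either direction was 5 of 10, against 32.9% of all genes.

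HSP90AA1 reached 2120.4, 1998 and 1859.9 TPM with shIFI16, against 1383, 1520.04 and 1379 TPM with shNC. Every shIFI16 library was well above every shNC library, and the log2 change was 0.48 (SE 0.065, adjusted p = 3.3e-05), a ratio of mean TPM of 1.396. HSPH1 stood at 192, 184 and 172 TPM with shIFI16, against 156, 164 and 152 TPM with shNC. The groups were narrowly apart, and the log2 change was 0.21 (SE 0.064, adjusted p = 0.019); the call was lost without shIFI16 replicate 1 (adjusted p = 0.058), shIFI16 replicate 2 (0.079) or shNC replicate 3 (0.084). HSPE1 stood at 732, 799 and 962 TPM with shIFI16, against 629.8, 658 and 708 TPM with shNC. The shIFI16 libraries were the more spread and all lay above the shNC libraries, and the log2 change was 0.31 (SE 0.089, adjusted p = 0.018). This call was lost with median-ratio scaling (adjusted p = 0.11), without the filter on low values (0.068) and without shNC replicate 1 (0.054), and without shIFI16 replicate 3 the change was 0.20. With limma without trend and robust, neither HSPH1 (0.076) nor HSPE1 (0.067) passed.

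DNAJB1 stood at 255, 259 and 255 TPM with shIFI16, against 346, 345 and 329.9 TPM with shNC. Both groups were tight and far apart, and the log2 change was -0.41 (SE 0.056, adjusted p = 4.4e-05), so that the mean fell to 0.753 of the shNC mean. BAG3 stood at 224, 226 and 209.8 TPM with shIFI16, against 281, 277 and 266 TPM with shNC. All shIFI16 libraries were below all shNC libraries, with a log2 change of -0.32 (SE 0.059, adjusted p = 0.00069). HSP90AA1, DNAJB1 and BAG3 passed under all 12 alternatives tried.

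The inducible HSP70 genes were close in both groups. HSPA1A stood at 91.05, 80.8 and 81.8 TPM with shIFI16, against 87.2, 90.9 and 88.8 TPM with shNC, and HSPA1B averaged 179 ± 8.84 TPM with shIFI16 and 189.6 ± 5.31 TPM with shNC. Their log2 changes were -0.07 (95% confidence interval -0.22 to 0.07, adjusted p = 0.45) and -0.09 (-0.22 to 0.04, adjusted p = 0.31). HSPA8 averaged 2123 ± 77.7 TPM with shIFI16 and 2268 ± 141 TPM with shNC, with a log2 change of -0.09 (-0.22 to 0.04, adjusted p = 0.27). HSPB1 averaged 2346 ± 133 TPM with shIFI16 and 2496 ± 176 TPM with shNC, with a log2 change of -0.09 (-0.23 to 0.05, adjusted p = 0.33). In all 4 genes the groups overlapped, and the intervals bound the changes without showing that none exists. CRYAB was near the limit of the filter, at 1.196, 2.25 and 2.36 TPM with shIFI16, against 1.39, 0.77997 and 1.701 TPM with shNC. Its log2 change of 0.35 (-0.06 to 0.76) did not pass (adjusted p = 0.18), and it moved both ways with single libraries. Without shIFI16 replicate 1, the lowest of its group, it was 0.55 and passed (adjusted p = 0.018), and without shNC replicate 2, the lowest of its group, it was 0.18 (adjusted p = 0.53).

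Side by side, BAG3 was the gene that rose in radioresistant cells (0.72) and fell with shIFI16 (-0.32). HSPH1 (0.56 and 0.21) and HSPE1 (0.82 and 0.31) rose in both comparisons. The difference between the comparisons was not tested, since their tables were normalized separately.

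Ratios between partner genes were taken within each library, where the scale of the library cancels. HSPA1A per HSPA1B was 0.599 ± 0.0157 in radioresistant cells and 0.667 ± 0.0613 in control cells, with an overlap. HSP90AA1 per HSP90AB1, the constitutive HSP90 of the cytosol, was 0.934 ± 0.0309 in radioresistant cells and 0.951 ± 0.0472 in control cells. With the hairpins it was 0.987 ± 0.05004 with shIFI16 and 0.986 ± 0.0301 with shNC, so the pair kept its proportion within the spread. HSPE1 per HSPD1 was 0.306 ± 0.0469 in radioresistant cells and 0.221 ± 0.0571 in control cells, and 1.12 ± 0.202 with shIFI16 and 1.31 ± 0.113 with shNC, with overlap in both pairs. DNAJB1 per HSPA8 was 0.136 ± 0.0125 in radioresistant cells and 0.178 ± 0.0248 in control cells, with no overlap. It was 0.121 ± 0.00404 with shIFI16 and 0.150 ± 0.00687 with shNC, again apart. The sum of HSPA1A and HSPA1B per HSPA8 was 0.195 ± 0.0300 in radioresistant cells and 0.134 ± 0.0291 in control cells. Exact two-sided permutation tests of 5 ratios in both comparisons, 10 in all, could not go below p = 0.1, which the DNAJB1 per HSPA8 ratio reached in both comparisons and the HSPA1 per HSPA8 ratio in the first. The lowest adjusted p was 0.333.

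**Figure D3:**
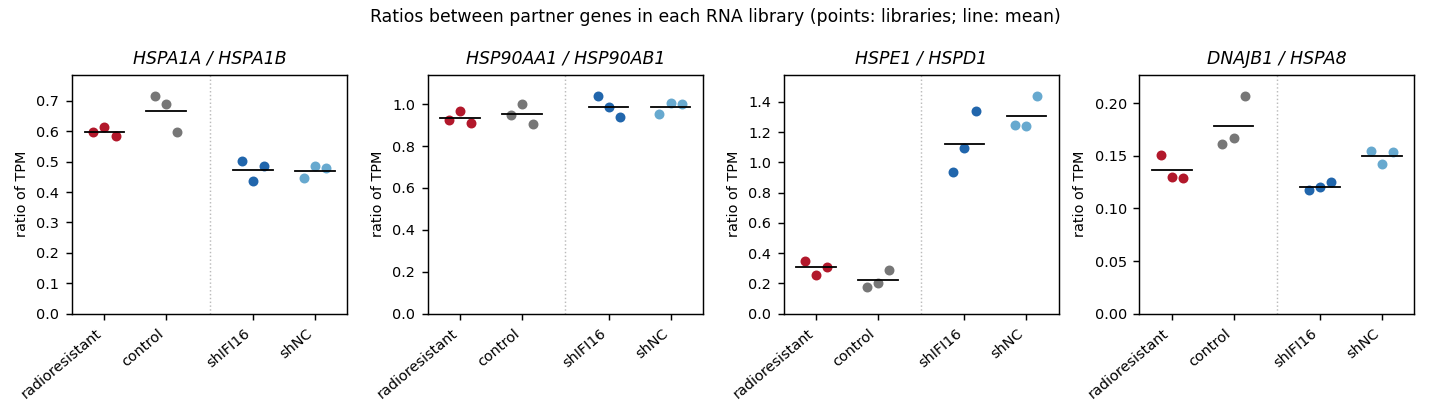
Ratio of TPM of partner genes (linear axis from 0) in each of the 3 libraries (points) of radioresistant, control, shIFI16 and shNC cells, with the mean as a line. DNAJB1 per HSPA8 is lower in every radioresistant than in every control library and in every shIFI16 than in every shNC library, while HSP90AA1 per HSP90AB1 averages between 0.934 and 0.987 in the 4 groups.

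The rest of the chaperone network was described by 8 lists of 86 genes that do not include the 10. These lists, too, were chosen with earlier results of these data known. In radioresistant cells 77 of the 86 could be tested, of which 28 rose and 10 fell, beside 16.9% and 27.0% of all genes tested, and their median log2 change was 0.17, beside -0.11 over all genes tested. HSF1, which drives the heat shock response, stood at 122, 112 and 118 TPM in radioresistant cells, against 61.7, 74.5 and 85.05 TPM in control cells. All radioresistant libraries were above all controls, and the log2 change was 0.67 (SE 0.129, adjusted p = 0.0019). Its negative regulator HSBP1 fell (155 against 199 TPM, adjusted p = 0.014), a call lost with median-ratio scaling (-0.24, adjusted p = 0.052) and without radioresistant replicate 1 or 3 or control replicate 1 or 2 (0.054 to 0.058).
Among 13 genes of the HSP90 family and its co-chaperones, 7 rose and 1 fell. They included CHORDC1, an HSP90 co-chaperone (56.4 against 25.5 TPM, log2 change 1.11, adjusted p = 0.00011), FKBP5, which tunes steroid receptors (33.3 against 15.6 TPM, 1.05, adjusted p = 0.00014), FKBP4 (0.53, adjusted p = 0.0069) and the kinase-loading CDC37 (0.67, adjusted p = 0.017). The CDC37 groups overlapped, and its call was lost without radioresistant replicate 1 or 3 or control replicate 2 (0.061 to 0.072) and with no filter on low values (0.053). HSP90AB1 averaged 1938 ± 189 TPM in radioresistant cells and 1583 ± 141 TPM in control cells and did not pass (0.29, adjusted p = 0.067), except with median-ratio scaling (0.42, adjusted p = 0.019) and without radioresistant replicate 1 (0.37, adjusted p = 0.046). With median-ratio scaling 11 of this list rose and 0 fell.
Of 15 chaperonin and prefoldin genes, 5 rose and 1 fell (8 and 0 with median-ratio scaling), led by the cytosolic chaperonin subunits CCT6A (0.54, adjusted p = 0.0022), CCT3 (0.48, adjusted p = 0.0038) and CCT5 (0.52, adjusted p = 0.0072) and by PFDN2 (0.54, adjusted p = 0.0027).

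Of 7 other HSP70 genes, 2 rose and 2 fell, beside 16.9% and 27.0% of all genes tested. Nothing is read from these counts. Mitochondrial HSPA9 rose (465 against 343 TPM, adjusted p = 0.013), as did HSPA12A (4.91 against 3.09 TPM, adjusted p = 0.018), while HSPA13 fell (49.5 against 68.95 TPM, adjusted p = 0.016). HSPA2 was the other gene called lower (0.587 against 1.84 TPM, adjusted p = 0.0015), but entered the test only through the control libraries, which fixes its direction. Single libraries ended 3 of these calls: HSPA9 without radioresistant replicate 3 (0.065), HSPA13 without radioresistant replicate 1 or 3 (0.065 each) or control replicate 2 (0.076), and HSPA12A without radioresistant replicate 2 or 3 (0.065 each) or control replicate 1 (0.066). Of 15 J-domain genes, 4 rose and 2 fell: mitochondrial DNAJA3 rose (0.56, adjusted p = 0.0016), as did ribosome-associated DNAJC2 (0.68, adjusted p = 0.007) and DNAJB4 (0.46, adjusted p = 0.0073), and DNAJB5 fell (-0.88, adjusted p = 0.00091). The counts of J-domain genes lie near the shares of all genes, and nothing is read from them. Of 10 further HSP70 co-chaperones, 3 rose and 1 fell, with BAG2 (0.55, adjusted p = 0.0022), GRPEL1 (0.43, adjusted p = 0.012) and HSPBP1 (0.50, adjusted p = 0.02) higher and BAG4 (-0.65, adjusted p = 0.0021) lower. GRPEL1 was lost without radioresistant replicate 3 (0.064), and HSPBP1 without radioresistant replicate 3 (0.087) or control replicate 1 (0.06) or 2 (0.074). The 2 other genes listed with the small heat shock proteins that could be tested gave no call. Among 11 further genes of the heat shock response, 6 rose and 2 fell, with stress genes GADD45B (1.40, adjusted p = 1.5e-05), IER5 (1.22, adjusted p = 0.00071) and SQSTM1 (1.01, adjusted p = 2.3e-05) higher and the extracellular chaperone CLU lower (34.8 against 148 TPM, -2.07, adjusted p = 7.7e-07).

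With the hairpins 76 of the 86 could be tested, of which 30 rose and 12 fell, beside 16.6% and 16.3% of all genes tested, with a median of 0.14, beside 0.03 over all genes tested. HSF1 averaged 64.5 ± 3.88 TPM with shIFI16 and 65.6 ± 1.78 TPM with shNC and did not pass (log2 change -0.03, 95% confidence interval -0.18 to 0.13, adjusted p = 0.82). HSF2 rose (26.6 against 20.5 TPM, adjusted p = 0.0084; 0.05 without shNC replicate 3), as did HSBP1 (206 against 179 TPM, adjusted p = 0.021). HSBP1 was lost with median-ratio scaling (0.097), without trend and robust (0.08) and without shIFI16 replicate 2 (0.094) or shNC replicate 1 (0.11). HSF4 was lower with shIFI16 (1.096 against 1.83 TPM, adjusted p = 0.039), at levels near the filter. Of its shIFI16 libraries, replicate 1 (1.52 TPM) reached 1 TPM, and replicates 2 (0.839 TPM) and 3 (0.927 TPM) did not. HSF4 would not have entered the test without shNC libraries, which favours this direction, and it passed in 6 of 12 alternatives. Of the 13 HSP90 genes and co-chaperones, 9 rose and 1 fell. HSP90AB1 rose (2018 against 1447 TPM, 0.48, adjusted p = 1.1e-05), as did FKBP5 (0.72, adjusted p = 1.8e-05) and FKBP4 (0.57, adjusted p = 7.9e-06), while CHORDC1 fell (44.96 against 68.3 TPM, -0.59, adjusted p = 1.7e-05).
Of 15 chaperonin and prefoldin genes, 9 rose and 0 fell (5 and 0 with median-ratio scaling), led by HSPD1 (743 against 509.6 TPM, 0.54, adjusted p = 4.1e-06), CCT7 (0.32, adjusted p = 0.00051), CCT3 (0.29, adjusted p = 0.0015) and CCT6A (0.26, adjusted p = 0.0024).

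Of 6 other HSP70 genes, 2 rose and 1 fell, with HSPA14 (0.38, adjusted p = 0.0017) and HSPA4L (0.25, adjusted p = 0.025) higher and HSPA12A (-0.47, adjusted p = 0.012) lower with shIFI16. HSPA4L was lost without shIFI16 replicate 1 (0.052) or 2 (0.053) or shNC replicate 1 (0.05) or 3 (0.13), and HSPA12A without shIFI16 replicate 2 (0.062) or shNC replicate 2 (0.051). Of 15 J-domain genes, 3 rose and 1 fell: DNAJC7 (0.37, adjusted p = 0.00022), DNAJA1 (0.19, adjusted p = 0.024) and DNAJA3 (0.21, adjusted p = 0.028) were higher and DNAJB2 (-0.25, adjusted p = 0.018) was lower. DNAJA1 was lost in 5 of 12 alternatives, with shIFI16 replicate 2 (0.075) or shNC replicate 1 (0.088) or 3 (0.077) left out among them. DNAJA3 was lost in 4, with shIFI16 replicate 2 (0.14) or shNC replicate 3 (0.15) left out among them, and DNAJB2 in 3, without shIFI16 replicate 2 (0.073) or shNC replicate 1 (0.066) or 3 (0.077). Median-ratio scaling left 1 higher and 2 lower in this list, whose counts, like those of the co-chaperones, lie near or below the shares of all genes. Of 10 HSP70 co-chaperones, mitochondrial GRPEL1 rose (0.47, adjusted p = 0.00012) and SIL1 of the endoplasmic reticulum fell (-0.40, adjusted p = 0.00063), and with median-ratio scaling 3 rose and 1 fell. Both testable genes listed with the small heat shock proteins fell. The log2 change was -0.28 for HSPB8, a partner of BAG3 (adjusted p = 0.025), and -0.22 for HSPB11 (adjusted p = 0.028). HSPB8 was lost in 5 of 12 alternatives, among them without shIFI16 replicate 3 (0.078) or shNC replicate 2 (0.12) or 3 (0.05). HSPB11 was lost in 7 of 12, among them median-ratio scaling (0.098) and without shIFI16 replicate 1 (0.063) or 2 (0.082) or shNC replicate 2 (0.078) or 3 (0.16). Of 11 further heat shock response genes, 4 rose and 5 fell. The collagen chaperone SERPINH1 (131 against 78.4 TPM, adjusted p = 4.5e-07) and CLU (26.6 against 15.3 TPM, adjusted p = 1.4e-05) were higher, and ATF3 (10.4 against 16.9 TPM, adjusted p = 0.00011) and IER5 (55.8 against 80.7 TPM, adjusted p = 7e-05) lower with shIFI16.

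**Figure D4:**
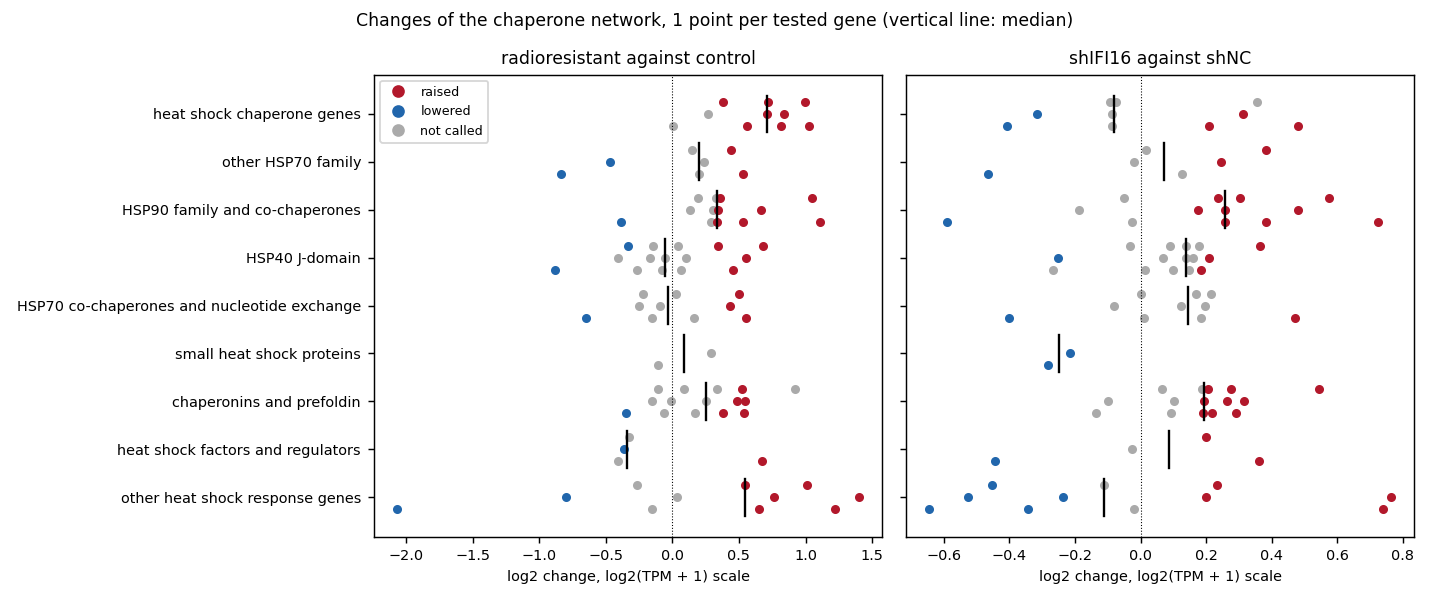
Log2 change on the log2(TPM + 1) scale of each tested gene (points) of the 10 heat shock chaperone genes and of the 8 lists of the chaperone network, for radioresistant against control cells on the left and shIFI16 against shNC on the right, with the median of each list as a short line. Axes of the 2 panels have different ranges; the top row has its median at 0.71 on the left and at -0.08 on the right.

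Open chromatin was measured in 1 ATAC-seq library for each condition, so its values stand side by side with no test. The radioresistant library had 12877 summits and the control library 2454, and the median score, a -log10 q-value of the peak caller, was 4.08 in the radioresistant library and 3.57 in the control library. A summit lay within 1000 bases of a start site of 5 of the 9 genes with a start site in the radioresistant library, against 0 of 9 in the control library. Among 27305 genes, 19.1% had one in the radioresistant library and 3.57% in the control library. The nearest to a start site was that of HSPE1, at -54 and with a score of 8.79, in the short stretch between the starts of HSPE1 and HSPD1 that is printed above with its centre in capitals. HSPB1 had one at -397 (score 2.98), HSPH1 at 302 (4.70) and HSPA1B at -242 (8.54), which lies outside the printed stretch. DNAJB1 had one at -285 (4.32) from its start at 14529271, which is not the start whose elements are printed. No summit in either library was found within 1000 bases of HSPA1A, HSPA8, HSP90AA1 and BAG3, and with a score of at least 10 none of the 9 had one, beside 1.13% of all genes in the radioresistant library and 0.0256% in the control library. The 250 bases upstream of HSPA1A and HSPA1B were 93.6% identical, and how ATAC-seq reads were placed between the copies is not known. A summit at HSPA1B and none at HSPA1A is therefore not read as a difference between them.

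For each of the 10, the gene most like it in its pattern over the 12 libraries was sought among genes outside the 10. The measure was the root mean square difference of log2(TPM + 1), centred within each table, over 8446 genes with means of at least 10 TPM. The 10 were not compared with each other. HSPH1 was nearest to ABCE1 (0.0364), HSP90AA1 to TXLNG (0.0407), HSPA8 to ZNHIT6 (0.0476) and DNAJB1 to TNIP1 (0.0499). HSPA1A was nearest to ALAS1 (0.0537), HSPA1B to RBCK1 (0.0562), BAG3 to HGS (0.0581), HSPB1 to CYB5R3 (0.0729) and HSPE1 to IER3 (0.0898). CRYAB had the least close neighbour, ID3 (0.226), beside its median of 0.518 over all genes compared. Across the 10 these medians ran from 0.252, for DNAJB1, to that of CRYAB. The libraries share their groups and scaling, so these values are descriptions.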

How the data were processed

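The authors deposited RNA-seq values as TPM in 2 tables whose names call them counts; every column summed to 1000000. ATAC summits came as 1 list per library, and the authors' score of each summit is a −log10 q-value. Per the submitters' processing notes, featureCounts, Cufflinks 2.2.1, TopHat and Trim Galore 0.6.6 were used, with MACS2 2.1.4, SAMtools 1.10 and Bowtie2 2.2.5 for ATAC-seq, on hg38. For the tool behind the TPM, the annotation and the strand setting, nothing is stated (not given in the sources used here). Depth is therefore unknown.

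Tests covered genes that reached 1 TPM in 3 or more of 6 libraries, on log2(TPM + 1) with limma 3.58.1 (R 4.3.3), trend and robust, two-sided, within 1 table, with Benjamini-Hochberg adjustment over all genes tested and a threshold of 0.05. The log2 scale with a pseudocount of 1 understates changes of low genes such as CRYAB. Left out were 28 date-like entries (0.115 to 0.190% of TPM). In simulated data, log2 changes of 1 were recovered for 77.5% of 200 genes in the radioresistant comparison and 91.0% in the hairpin comparison, and changes of 0.5 for 0% and 47.0%. Only these 200 genes were changed, of 13127 in the first comparison and 12567 in the second. In the real data 43.9% and 32.9% of genes were called, so the adjusted threshold was less strict there. The simulated rates therefore do not give the share of real changes that was found.

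Members and lists were chosen with earlier results of these data known. Named from each list were up to 4 called genes per comparison by smallest p, with HSF1, HSPD1 and HSP90AB1. Alternatives were a pseudocount of 0.1, no filter, median-ratio scaling, quantile normalization, limma without trend and robust, a replicate block, each library left out, and ATAC distances and scores. Sequences come from RefSeq (GRCh38.p14), with 9 of 10 genes matched.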

Additional observations from a re-analysis of the deposited data

How the results depend on the processing

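In radioresistant against control cells, 12 alternatives gave 7 to 9 called genes of the 10, with 0 that fell, and HSPA1A, HSPA1B, HSPH1, HSPB1, HSPE1, BAG3 and CRYAB passed in all 12. DNAJB1 changed sign with quantile normalization (-0.007), without radioresistant replicate 2 (-0.006) and without control replicate 1 (-0.008), over a range of -0.008 to 0.013 with 1 library left out. Its largest value, 0.128, came with median-ratio scaling and did not pass (limma, adjusted p = 0.28). In shIFI16 against shNC, limma without trend and robust called 3 of the 10, of which 1 rose, against 5 called and 3 that rose; leaving out 1 library gave 4 to 5 calls, 2 to 3 that rose and 2 that fell. HSF1 there changed sign without shIFI16 replicate 3 (0.024; range -0.053 to 0.024 with 1 library left out). Leaving out 1 library in the radioresistant comparison gave 7 to 8 calls. ATAC summits with a score of at least 10 were near 0 of the 9 genes, against 5, where 1.13% of all genes had one. To see whether replicate numbers pair the libraries, the deviation of each library from its group mean was taken for every gene tested. These deviations correlated at -0.377, 0.245 and 0.081 between same-numbered radioresistant and control libraries. Between same-numbered shIFI16 and shNC libraries they correlated at 0.215, 0.088 and 0.028. Not every library correlated best with its own number. Deviations within a group of 3 are not independent of each other, so these values do not settle the pairing. The replicate block called 5572 genes against 5762 in the first comparison and 5610 against 4140 in the second, and 7 of the 10 genes in the first, without HSPA8 (adjusted p = 0.052). TPM keeps no depth, so counting error is not covered, and the cause of these moves was not tested.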

Other observations

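Some of the 10 genes stood at other levels in the hairpin table than in the first, although both tables hold radioresistant cells. The tables were normalized separately, so these values were not tested against each other. HSPE1 averaged 665 ± 39.5 TPM with shNC and 204 ± 24.4 TPM in radioresistant cells without a hairpin, and CRYAB averaged 1.29 ± 0.468 TPM with shNC and 15.1 ± 4.13 TPM in radioresistant cells without a hairpin. HSPD1, the partner of HSPE1, averaged 509.6 ± 19.5 TPM with shNC and 672 ± 94.4 TPM in radioresistant cells without a hairpin, and the HSPE1 per HSPD1 ratio was 1.31 ± 0.113 with shNC and 0.306 ± 0.0469 in radioresistant cells without a hairpin (SD, n = 3 each).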
